A study of Homo sapiens with 8 samples.

Results

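Among 8 messenger RNA arrays of KYSE850 cells, 4 arrays (control arrays 1 and 3 and KHSRP siRNA arrays 1 and 4) carried a high level of INHBA mRNA and 4 (control arrays 2 and 4 and KHSRP siRNA arrays 2 and 3) a low one. The sets, named the INHBA-high and the INHBA-low set here, were chosen by these measured INHBA levels, and each holds 2 control and 2 KHSRP siRNA arrays, so that they cross the siRNA groups. KYSE850, a long-established human line, was derived from a squamous carcinoma of the esophagus (ESCC). The study compared cells that received a control siRNA with cells that received siRNA against KHSRP, an RNA-binding protein that acts in mRNA decay and microRNA maturation, with 4 arrays of each, in this single cell line with no other treatment in the labels. Nothing in the labels tells which KHSRP siRNA sequence belongs to which array, what differed between the arrays of one siRNA group, or whether the arrays came from separate cultures, so the p-values below measure the spread between these samples only, which may be technical. Array numbers are those of the scanner files.

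INHBA encodes the subunit that pairs with itself to form activin A, a ligand of the TGF-beta family that signals through type I and type II receptor kinases to SMAD proteins and is bound and neutralised by follistatin. Squamous epithelia are held to the basement membrane by laminin-332, collagen XVII and other parts of the hemidesmosome, and their basal cells are marked by the transcription factor p63 and by keratins 5 and 14. These genes are also hallmarks of squamous carcinomas of the esophagus.

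The values are log2 signals relative to the 75th percentile of each array, on a scale where 1 unit is a factor of 2. Among the control arrays, INHBA stood at 2.48 on array 1 and 3.14 on array 3, against 0.20 on array 2 and -0.78 on array 4. Among the KHSRP siRNA arrays, it stood at 3.69 on array 1 and 4.15 on array 4, against 1.42 on array 2 and -0.10 on array 3. The lowest array of the high set was control array 1 and the highest of the low set was KHSRP siRNA array 2, so that the sets did not overlap. With the siRNA group as a covariate, the difference was 3.18 ± 0.44 (SE, n = 4 arrays per set), or 9.08-fold. Since INHBA chose the arrays, and every other gene was measured on the same arrays, all differences between the sets are given as a description, without a test.

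To show what the leading genes look like upstream of their start, the 250 bases before the RefSeq gene start (GRCh38.p14) follow for INHBA, for COL17A1 and LAMA3, which encode collagen XVII and the alpha 3 chain of laminin-332 and were among the 12 genes with the largest higher level in the INHBA-high set, and for NR2F1 and BMP4, which were among the 12 with the largest lower level. Capitals mark the letters TGANTCA, the core of an AP-1 element, which reads the same on both strands and was searched without mismatch. The INHBA stretch lies at chr7:41703091-41703340 on the minus strand, that of COL17A1 at chr10:104085881-104086130 on the minus strand, that of LAMA3 at chr18:23872770-23873019 on the plus strand, that of NR2F1 at chr5:93582972-93583221 on the plus strand and that of BMP4 at chr14:53955051-53955300 on the minus strand.
INHBA: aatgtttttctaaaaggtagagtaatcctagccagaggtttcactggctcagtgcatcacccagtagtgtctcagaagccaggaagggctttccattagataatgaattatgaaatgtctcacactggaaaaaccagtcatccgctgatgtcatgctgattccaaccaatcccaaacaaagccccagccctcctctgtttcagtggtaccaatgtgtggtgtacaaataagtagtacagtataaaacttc
COL17A1: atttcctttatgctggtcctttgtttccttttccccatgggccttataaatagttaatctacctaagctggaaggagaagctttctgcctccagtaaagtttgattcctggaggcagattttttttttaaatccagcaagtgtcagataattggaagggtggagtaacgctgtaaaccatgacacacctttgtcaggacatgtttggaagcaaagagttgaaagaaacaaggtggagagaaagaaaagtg
LAMA3: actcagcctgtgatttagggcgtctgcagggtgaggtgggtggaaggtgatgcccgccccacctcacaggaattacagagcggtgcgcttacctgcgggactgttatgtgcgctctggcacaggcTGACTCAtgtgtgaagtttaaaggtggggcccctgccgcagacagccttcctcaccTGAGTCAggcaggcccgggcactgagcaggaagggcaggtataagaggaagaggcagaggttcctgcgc
NR2F1: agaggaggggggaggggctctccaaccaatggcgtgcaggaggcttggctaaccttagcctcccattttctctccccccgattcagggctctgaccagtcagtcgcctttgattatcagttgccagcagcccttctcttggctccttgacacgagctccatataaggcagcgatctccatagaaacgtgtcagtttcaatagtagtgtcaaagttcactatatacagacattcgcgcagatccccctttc
BMP4: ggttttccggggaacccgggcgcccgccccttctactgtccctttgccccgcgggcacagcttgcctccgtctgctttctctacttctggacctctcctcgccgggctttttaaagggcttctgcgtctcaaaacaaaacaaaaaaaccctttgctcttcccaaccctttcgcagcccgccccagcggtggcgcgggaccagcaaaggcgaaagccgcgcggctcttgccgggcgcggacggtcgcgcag

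The letters occurred 2 times in the LAMA3 stretch and not in the other 4. INHBA and COL17A1 each held 1 CpG pair in these 250 bases, LAMA3 9, NR2F1 8 and BMP4 25. The AP-1 letters were found upstream of 8.39% of the 608 genes with a stretch among those at least 2-fold higher in the INHBA-high set, of 4.95% of the 364 at least 2-fold lower, of 4.22% of all 10260 tested genes with a stretch, and of 6.60% of the 27305 stretches of that length in the RefSeq table. Stretches with fewer than 10 CpG pairs made up 36.2%, 28.6%, 16.4% and 48.1% of the same groups in that order. Of 8 motifs searched on both strands, AP-1 was chosen for display after its shares were seen. TATAAA (the box of the core promoter) occurred in 11.2% of the higher, 7.97% of the lower and 5.96% of all tested stretches, and in 11.1% of the whole table. For TTTGAA (CHR) these shares were 11.51%, 10.7%, 8.26% and 13.6%, for CAGACA (SMAD) 12.3%, 9.89%, 9.84% and 13.6%, and for GGAATG (TEAD) 11.02%, 11.3%, 9.21% and 11.9%. For CCAAT they were 35.9%, 33.2%, 35.4% and 33.0%, for GGGNNTTCC (NF-kappaB) 6.09%, 7.69%, 7.29% and 5.81%, and for TCACNCCAC (sterol element) 0.658%, 1.37%, 0.858% and 0.875%. A match of letters is a description and says nothing of a factor's binding.

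Genes are named by a rule given with the processing steps, and others were added after their values were seen. A probe was said to part the sets when its mean level differed at least 2-fold and, within each siRNA group, both arrays of one set lay above both of the other. Of 20537 tested probes, 1129 (5.5%) were higher in the INHBA-high set by this rule and 717 (3.49%) were lower. With 1 probe per gene, 809 of 12871 genes (6.29%) were higher and 508 (3.95%) were lower, while the median difference of all tested genes was -0.06. Of the 288 further tested probes of these genes, 96.5% had the same direction and 67.0% parted the sets the same way. Irrespective of size, the arrays did not overlap for 3664 probes on the higher and 4957 on the lower side. The list counts below are to be read against the gene shares of 6.29% and 3.95%. Probes were tested when well above background on at least 4 arrays, so some passed through 1 set alone and could hardly part the other way. Of the genes named below, IL36G, IL6, KLK11, TMPRSS11D, FZD8, CRYAB, RORA and VLDLR passed through the INHBA-high set alone, and they count as higher in their lists.

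The array-wide pattern was close to a single axis. After each probe's siRNA group mean was taken out, the first principal component held 64.6% of the variance and put control array 3 and KHSRP siRNA array 4 at one end, control array 4 and KHSRP siRNA array 3 at the other, and arrays 1 and 2 of each group between them on their set's side. Control array 3 and KHSRP siRNA array 4 correlated at r = 0.83 over the 20537 probes, as did control array 4 and KHSRP siRNA array 3. The arrays with number 1 correlated at 0.51 and those with number 2 at 0.42, whereas control array 3 and KHSRP siRNA array 3 stood at -0.67. Taking out group means makes arrays of one group lean towards negative values, so only pairs across the siRNA groups are given here, as a description over probes that share the same arrays.

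**Figure D1:**
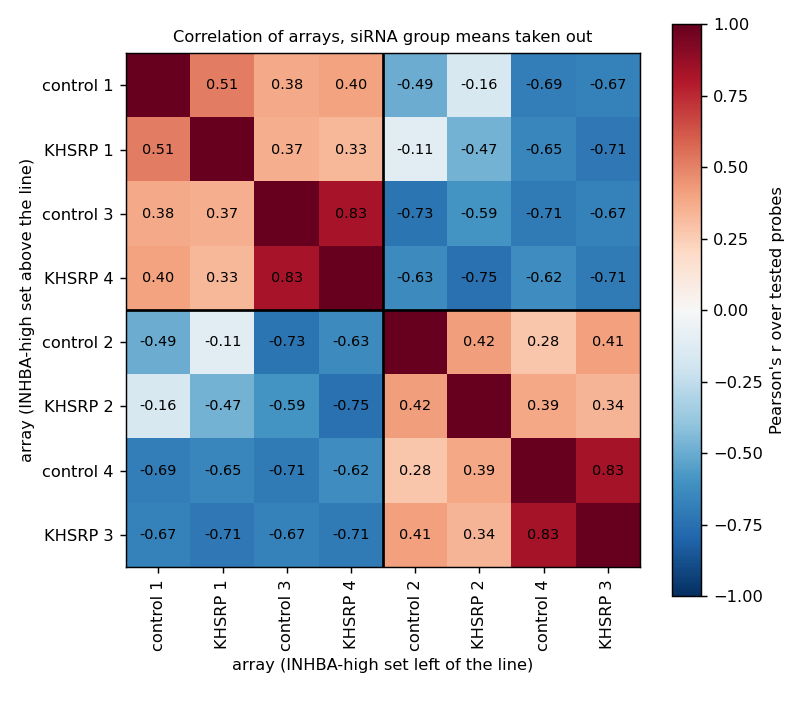
Pearson's r between each pair of the 8 arrays over 20537 tested probes after the mean of the siRNA group was taken out of each probe, on a colour scale from -1 to 1. The INHBA-high arrays lie above and left of the black lines, pairs within a set are positive, pairs between the sets are negative, and the highest values (0.83) join control array 3 to KHSRP siRNA array 4 and control array 4 to KHSRP siRNA array 3.

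The arrays lay on 2 slides, slide 1 with numbers 1 and 2 of each siRNA group and slide 2 with numbers 3 and 4, and each slide held 1 array of each set from each group. The difference between the sets was larger on slide 2, where the parting probes had a median absolute difference of 1.81, than on slide 1, where it was 1.02. The direction was shared: of 1557 probes at least 2-fold higher in the INHBA-high arrays of slide 2, 98.6% were also higher on slide 1, and of 1469 at least 2-fold lower, 96.7% were also lower there. Among the 1129 higher probes, the levels ran in the order array 3, 1, 2, 4 in 76.8% for the control arrays, and in the order array 4, 1, 2, 3 in 77.7% for the KHSRP siRNA arrays. Among the 717 lower probes the reverse orders held in 66.2% and 66.7%.

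Slide 1 can be read against probes picked on slide 2 alone. On slide 2, 253 probes were well above background on both INHBA-high arrays, at background on both INHBA-low arrays and at least 4-fold apart. The choice fixes the ends of the scale on slide 2, so the place of slide 1 between them is no finding and only its arrays are set against each other. For these probes the median signal on slide 1, as a percentage of the bright slide 2 array of the same siRNA group, was 68.1% on control array 1 and 25.8% on control array 2. Among the KHSRP siRNA arrays it was 72.7% on array 1 and 28.8% on array 2. For the 90 probes picked in the opposite direction, array 1 stood at 35.8% for control and 41.6% for KHSRP siRNA, and array 2 at 74.1% and 77.0%.

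**Figure D2:**
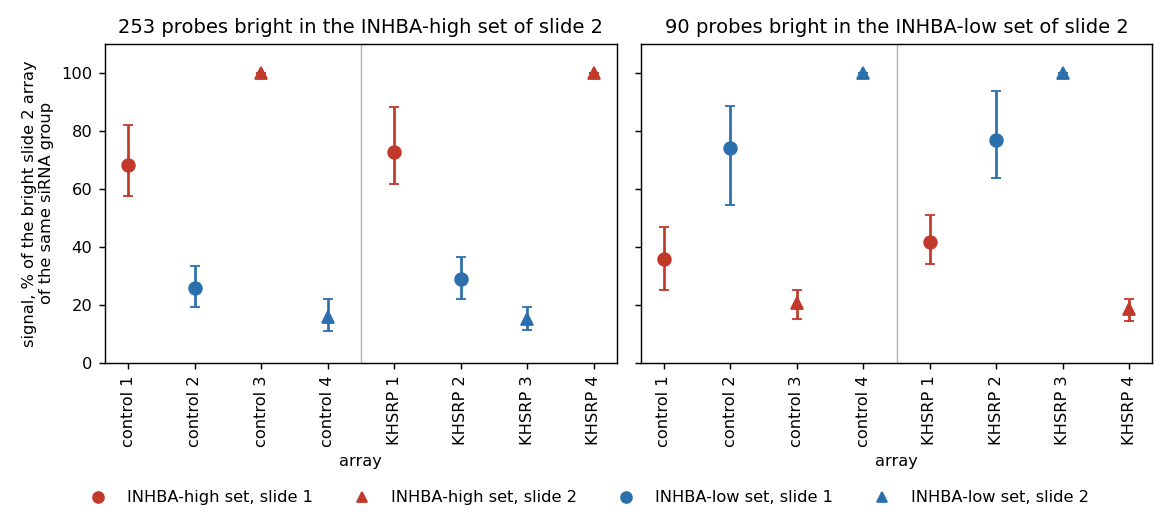
Median signal on each array, with bars for the 25th to 75th percentile over probes, as a percentage of the bright slide 2 array of the same siRNA group (linear axis from 0). Left, 253 probes bright on the INHBA-high arrays and at background on the INHBA-low arrays of slide 2, and right, 90 probes of the opposite kind. The slide 2 arrays (triangles) stand at the ends by the choice of probes. On slide 1 (circles), array 1 lies above array 2 in the left panel and below it in the right one, in both siRNA groups.

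The scanner measures differed little between the sets. The 75th percentile of the signal ran from 157 to 207 over the 8 arrays, between 45.1% and 49.4% of probes were well above background on each, no spot was saturated, and each set held arrays of both slides. The part of these measures in the differences was not tested. KHSRP itself did not part the sets, at 6.03, 5.81, 6.39 and 6.08 on control arrays 1 to 4 and 2.52, 2.58, 2.88 and 2.85 on KHSRP siRNA arrays 1 to 4. It fell by 3.37 ± 0.15 on the log2 scale after KHSRP siRNA (limma adjusted p = 9.87e-05), with no overlap between the siRNA groups (exact two-sided permutation test, p = 0.0286, the smallest that 4 against 4 arrays allow). The level left was 8.67% of control in the INHBA-high and 10.8% in the INHBA-low set.

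The squamous identity named in the labels was checked on 22 markers of basal squamous cells. All 22 were well above background on all 8 arrays, but 17 parted the sets, all of them higher in the INHBA-high set, against the 6.29% of all genes given above. Their median difference was 1.84, and their summed signal, in units of the array's 75th percentile, ran from 484 to 587 on the INHBA-high arrays and from 144 to 250.04 on the INHBA-low arrays. The list was chosen with earlier results of these data known, so its share is a description and no independent evidence. In such bulk RNA, fewer cells of a type and less RNA per cell cannot be told apart.

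TP63, which encodes the basal cell transcription factor p63, stood at -1.26 and -0.37 on control arrays 1 and 3 against -2.78 and -2.57 on control arrays 2 and 4. On the KHSRP siRNA arrays it stood at -0.997 and -0.54 (arrays 1 and 4) against -3.21 and -2.97 (arrays 2 and 3). The difference was 2.09 ± 0.26, and the sets did not overlap. KRT5, the type II keratin of basal cells, read 5.84 and 5.84 on control arrays 1 and 3 and 4.30 and 3.11 on control arrays 2 and 4. On KHSRP siRNA arrays it read 5.92 and 5.98 against 4.46 and 2.92, a difference of 2.20 ± 0.44. Its partner KRT14 differed by 2.22 ± 0.33 and SOX2, a transcription factor of squamous progenitors, by 1.71 ± 0.29.

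Genes of adhesion to the basement membrane were higher as well. LAMA3 read 3.42 and 3.47 on control arrays 1 and 3 against 1.44 and 0.27 on control arrays 2 and 4, and 3.54 and 3.82 against 2.06 and 0.41 on the KHSRP siRNA arrays. Its difference was 2.52 ± 0.46, beside 1.36 ± 0.20 for LAMB3, which encodes the beta 3 chain of laminin-332. COL17A1 read 0.94 and 1.30 on control arrays 1 and 3 against -0.93 and -2.01 on control arrays 2 and 4. On the KHSRP siRNA arrays it read 0.78 and 1.07 against -1.13 and -2.16, a difference of 2.58 ± 0.35. The integrin chains that bind laminin-332 differed by 0.36 ± 0.15 (ITGA6) and 0.56 ± 0.13 (ITGB4), and neither parted the sets.

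Cell-cell junction genes of the same list were also higher. DSG3, a desmosomal cadherin, differed by 2.30 ± 0.30, PKP1, a desmosomal plaque protein, by 1.97 and DSC3 by 1.17. KRT6A, KRT17 and KRT16, keratins of activated epithelium, differed by 2.18, 2.25 and 1.56, and KRT6B by 1.61. Keratins of one type are close relatives, so that these probes, and that of the pseudogene KRT42P below, may share transcripts. The 5 members that did not part the sets were KRT15 (0.70), ITGB4, PERP (0.40), ITGA6 and CDH3 (-0.18), the gene of P-cadherin.

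**Figure D3:**
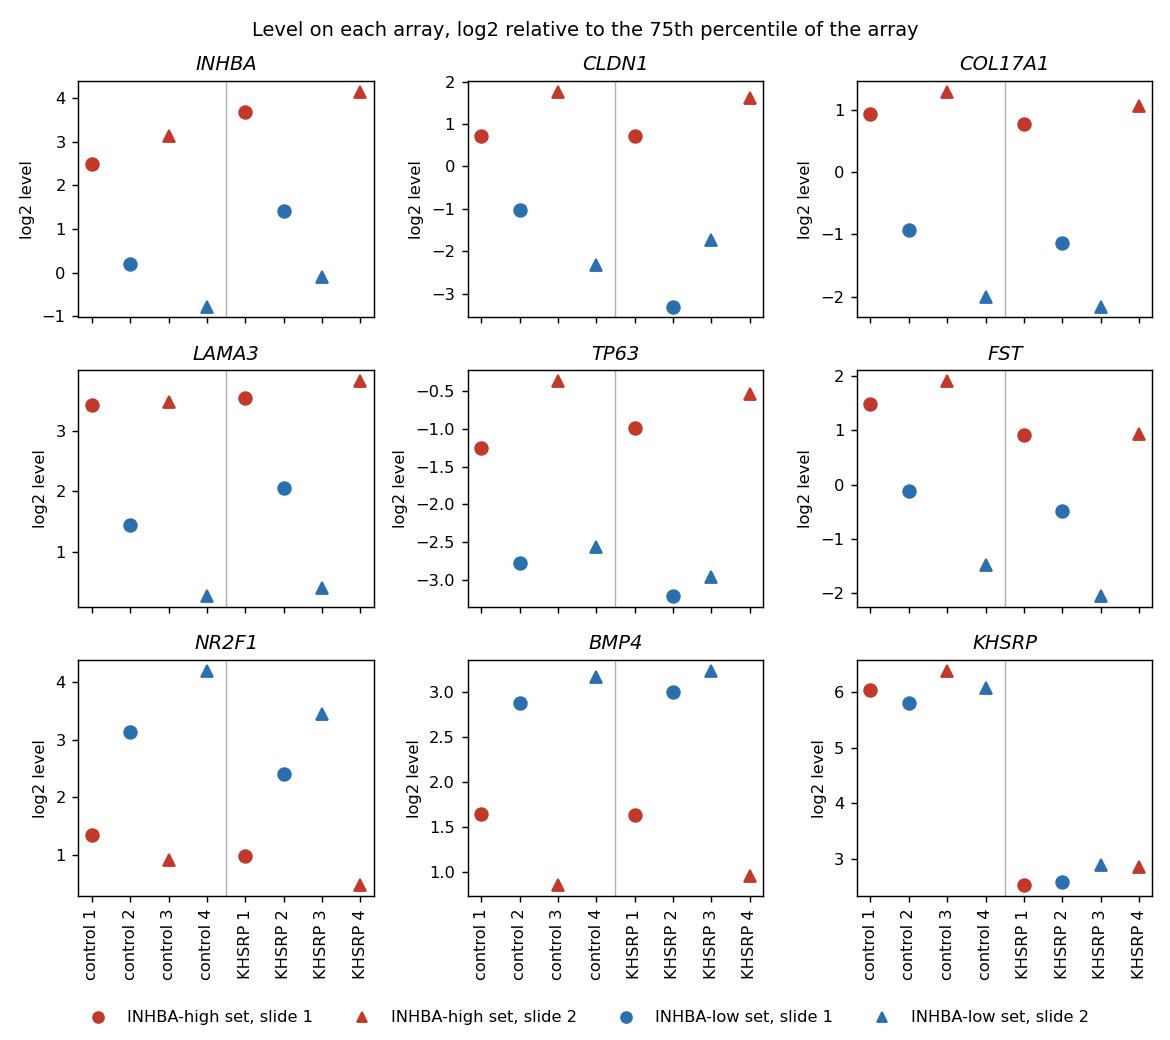
Level of 9 genes on each array (log2 relative to the array's 75th percentile), with control arrays left and KHSRP siRNA arrays right of the grey line, the INHBA-high set in red, the INHBA-low set in blue, circles for slide 1 and triangles for slide 2. INHBA, CLDN1, COL17A1, LAMA3, TP63 and FST lie higher and NR2F1 and BMP4 lower in the red arrays of each siRNA group, while KHSRP separates the siRNA groups and not the sets.

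The gene with the largest difference among those above background on all 8 arrays was CLDN1, which encodes the tight junction protein claudin-1. Its level was 0.73 and 1.76 on control arrays 1 and 3 against -1.03 and -2.32 on control arrays 2 and 4, and 0.72 and 1.62 against -3.30 and -1.73 on the KHSRP siRNA arrays. The difference was 3.30 ± 0.57, or 9.84-fold. CCL3, a chemokine, read 4.31 and 4.60 against 2.02 and 1.24 on the control arrays, and 4.73 and 4.83 against 2.41 and 1.496 on the KHSRP siRNA arrays, and differed by 2.82 ± 0.28. The 12 leading genes also included EFEMP1 (2.72), an extracellular matrix protein, and PDPN (2.68), the mucin-type protein podoplanin of invasive squamous fronts and lymphatic vessels. VEGFC (2.67), a lymphangiogenic growth factor, FXYD3 (2.61), a regulator of the sodium pump, and KRT42P (2.56) were among them as well.

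Genes with a lower level in the INHBA-high set were led by DDIT4L, an inhibitor of mTOR signalling. It stood at -0.93 and -1.92 on control arrays 1 and 3 against 0.90 and 1.79 on control arrays 2 and 4, and at -0.13 and -1.08 against 1.11 and 1.81 on the KHSRP siRNA arrays, a difference of -2.41 ± 0.43. NR2F1, an orphan nuclear receptor, stood at 1.35 and 0.92 against 3.13 and 4.19 on the control arrays and at 0.99 and 0.48 against 2.41 and 3.44 on the KHSRP siRNA arrays, a difference of -2.36 ± 0.37. Its antisense neighbour NR2F1-AS1 differed by -1.70. Both groups of low-set arrays lay above the high-set arrays for these genes.

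The other leading lower genes were KRT23 (-2.16), a type I keratin, WNT16 (-1.999), a Wnt ligand, SUSD2 (-1.85), PLEKHB1 (-1.78), TM7SF2 (-1.76), a sterol reductase, ADIRF (-1.76), CYFIP2 (-1.69), a part of the WAVE actin regulatory complex, and GPR162 (-1.69). BMP4, a ligand of the bone morphogenetic protein branch of the TGF-beta family, read 1.65 and 0.86 against 2.88 and 3.16 on the control arrays and 1.64 and 0.96 against 2.995 and 3.23 on the KHSRP siRNA arrays. The difference was -1.79 ± 0.25, a level 3.46-fold lower in the INHBA-high set.

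Some probes were clearly above background on each of the 4 arrays in one set but on none in the other, for which only a bound of the fold can be given, with each dim array set to the higher of its own value and the lowest signal among probes above background. There were 118 such probes (94 genes) in the INHBA-high set and 67 (44 genes) in the INHBA-low set. IL36G, an epithelial interleukin, was at least 9.19-fold higher and RHBDL2, a rhomboid protease, at least 6.09-fold higher in the INHBA-high set. Such bounds hold for the processing used here only. At its lowest under the alternatives, IL36G differed by 0.88 on the log2 scale. TNFSF4, a ligand of the tumor necrosis factor family, was at least 6.54-fold higher and ETV1, an ETS transcription factor, at least 4.22-fold higher in the INHBA-low set.

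In the activin pathway around INHBA, 2 of 5 tested antagonists were higher and 1 was lower. Of 7 tested receptors, 1 was higher and 1 lower, and none of 8 SMAD genes parted the sets. Of all tested genes, 6.29% were higher and 3.95% lower, and these short lists were not tested against them. Of 5 tested ligand genes, INHBA alone parted the sets. INHBB read between -2.30 and -1.36 on all arrays and differed by -0.22 ± 0.18. INHA (-0.80), INHBC (0.61) and GDF11 (0.12) did not part the sets either, and INHA and INHBC were above background on 5 and 6 of the 8 arrays.

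FST encodes follistatin, the activin antagonist. It stood at 1.49 and 1.91 on control arrays 1 and 3 against -0.11 and -1.49 on control arrays 2 and 4, and at 0.92 and 0.94 against -0.49 and -2.06 on the KHSRP siRNA arrays, 2.35 ± 0.48 higher in the INHBA-high set. BAMBI, a decoy receptor that blocks activin and TGF-beta signalling, stood at 6.25 and 7.09 against 5.23 and 5.22 on the control arrays and at 6.59 and 7.37 against 5.47 and 5.42 on the KHSRP siRNA arrays, and was 1.49 ± 0.26 higher. FSTL1 was lower by the same rule, at -1.02 ± 0.19, though the difference was under 2-fold without control array 3 (-0.95), KHSRP siRNA array 2 (-0.98) or KHSRP siRNA array 4 (-0.86). FSTL3 differed by 0.17 ± 0.24 and TGFBR3, a co-receptor, by -0.17.

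Of 7 tested receptors, ACVR1C, the type I receptor ALK7, was 1.85 ± 0.23 higher and BMPR1A, a type I receptor of bone morphogenetic proteins, differed by -1.27 ± 0.22. ACVR2B (-0.83), TGFBR1 (0.83), TGFBR2 (0.55), ACVR2A (-0.38) and ACVR1 (0.18) did not part the sets. None of the 8 SMAD genes parted them, in a list too short to tell this from the shares of all tested genes. SMAD7, an inhibitory SMAD, stood at 0.80, SMAD9 at 0.72, SMAD6 at -0.82 and SMAD4, the common partner, at -0.74. SMAD3 (0.18), SMAD5 (0.09), SMAD1 (-0.11) and SMAD2 (-0.27) stood closest to 0.

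Of 29 tested TGF-beta and SMAD target genes, 11 were higher and 3 lower, with a median of 0.82. The higher members were matrix and matricellular genes such as COL4A1 (2.16) and COL4A2 (2.11), which encode the collagen IV of basement membranes, and PMEPA1 (2.13), a feedback inhibitor of TGF-beta signalling. The lower members were BMP4, ID2 (-1.505) and ID3 (-1.39), and ID genes are known for responding to bone morphogenetic proteins. SMAD7, a common reporter of the pathway, did not reach 2-fold. COL4A1, COL4A2, THBS1 and MMP2 stand in more than 1 list, so the lists below are not independent.

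**Figure D4:**
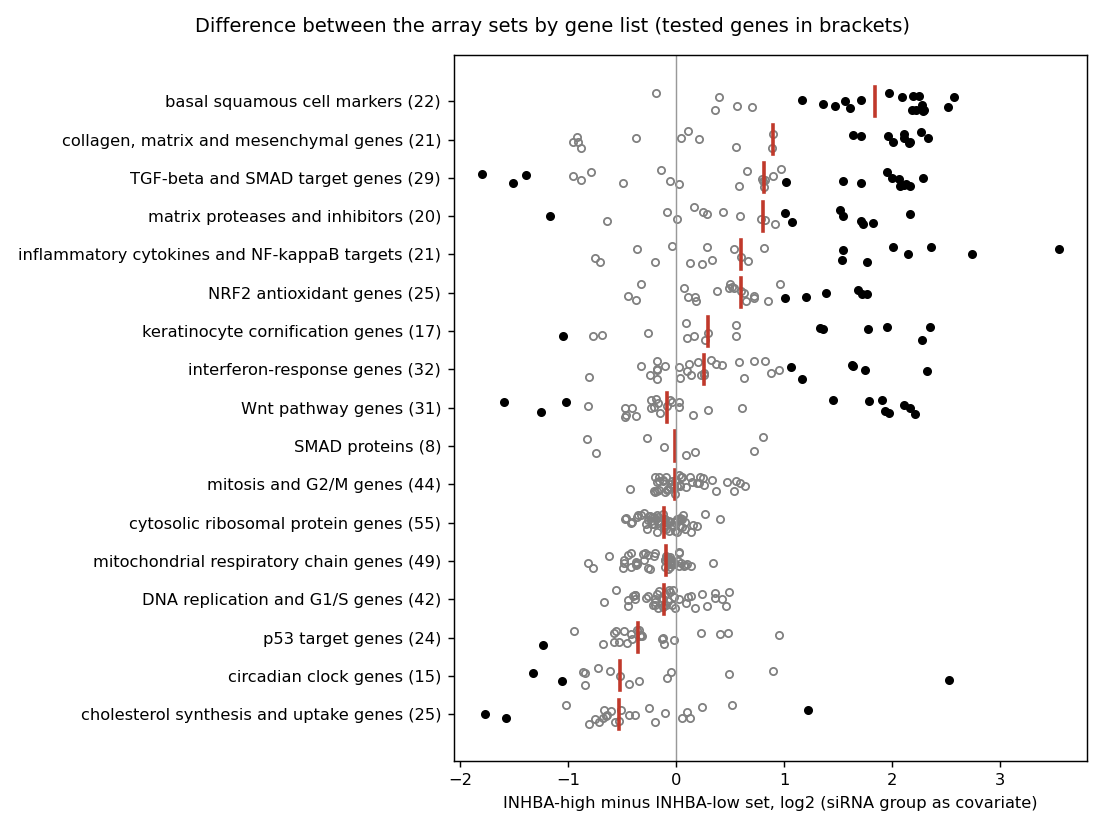
Difference between the sets (INHBA-high minus INHBA-low, log2) for each tested gene of 17 gene lists, with filled points for genes that part the sets, open points for those that do not, and a red bar at the list's median. The basal squamous cell markers lie farthest to the right with a median of 1.84, the mitosis, ribosomal protein, respiratory chain and DNA replication genes gather around 0 with no filled point, and the cholesterol synthesis genes lie mostly left of 0.

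Of 21 tested collagen, matrix and mesenchymal genes, 10 were higher and none lower (median 0.90). TNC (2.33), the matrix protein tenascin-C, COL5A1 (2.27) and FBN2 (2.16) led them. The list also held genes that are known as markers of epithelial-mesenchymal transition and that were higher together with the epithelial markers above. SNAI2, a transcriptional repressor that basal keratinocytes express as well, differed by 2.11 ± 0.35, CDH2, the gene of N-cadherin, by 1.96 ± 0.35, and VIM, vimentin, by 1.64 ± 0.26. SNAI1 (-0.96), TWIST1 (-0.37) and ZEB1 (0.21) did not part the sets. Among 20 matrix proteases and inhibitors, 8 were higher and 1 lower, with ADAMTS1 at 2.17, TIMP4 at 1.82, MMP14 at 1.73 and SERPINB2 at 1.71. SERPINB2 was above background on 2 of 4 INHBA-low arrays and differed by 0.37 with normexp background correction. At their lowest under the alternatives, MMP14 (0.60), ADAMTS1 (0.72) and TIMP4 (0.92) lay under 2-fold as well.

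Of 21 inflammatory cytokines and NF-kappaB targets, 8 were higher and none lower (median 0.60). IL1A, an alarmin of keratinocytes, read 1.69 and 2.28 against 0.25 and -0.54 on the control arrays and 0.99 and 1.36 against -0.61 and -1.39 on the KHSRP siRNA arrays, 2.15 ± 0.29 higher. IL1RN, the natural antagonist of interleukin-1, differed by 2.36 ± 0.45 and IL1B by 2.005 ± 0.23. TNFAIP3, a feedback inhibitor of NF-kappaB, differed by 1.77 ± 0.14. IL6 was above background on the INHBA-high arrays alone and at least 4.06-fold higher. It and IL36G, given above, are among the 8 higher genes, and 15 of the 21 were above background on all 8 arrays. NFKBIA (0.24) and NFKB1 (0.13), an inhibitor and a subunit of NF-kappaB, did not part the sets.

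Of 32 interferon-response genes, 6 were higher and none lower (median 0.26), among them RSAD2 (2.32), IFITM1 (1.75), OAS2 (1.64) and IFI44L (1.63), whereas ISG15 (-0.24), IFIT1 (0.14) and MX1 (0.33) did not part the sets. Of 25 NRF2 antioxidant genes, 6 were higher and none lower (median 0.60). Its leading members were AKR1C1 (1.77), AKR1C3 (1.68) and AKR1B10 (1.39), aldo-keto reductases with near-identical relatives that the probes may share, and GPX2 (1.72), while the classical targets NQO1 (0.11) and HMOX1 (-0.44) did not part the sets. Of 17 cornification genes, 6 were higher and 1 lower (median 0.30), with SPRR2A (2.27) and S100A8 (1.78) higher and KLK7 (-1.04) lower. KLK11 was at least 3.47-fold and TMPRSS11D at least 3.25-fold higher, each being at background on the INHBA-low arrays. Both are among the 6 higher genes, and 11 of the 17 were above background on all 8 arrays.

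Of 31 Wnt pathway genes tested, 8 were higher and 3 lower (median -0.08). The higher ones were the ligands WNT7A (2.11), WNT7B (1.93), WNT5A (1.91) and WNT5B (1.46), the secreted DKK3 (2.21), the receptors FZD10 (1.79) and FZD8 (at least 2.89-fold) and the transcription factor LEF1 (1.97). The ligand WNT16, not in the list, went the other way, as given above. The lower ones were TCF7L2 (-1.59), a transcription factor of the pathway, AXIN2 (-1.24) and RNF43 (-1.02), feedback inhibitors that are textbook targets of beta-catenin. The feedback inhibitors ZNRF3 (-0.05) and NKD1 (-0.23) did not part the sets. AXIN2 read -0.38 and -0.48 against 0.61 and 0.94 on the control arrays and -0.34 and -0.77 against 0.42 and 1.05 on the KHSRP siRNA arrays. In the Notch list, 3 of 17 genes were higher (DLL3 2.01, DLL1 1.49 and HEY1 1.13) and HEYL (-1.12) was lower.

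Among the ligands of the EGF receptor family, EPGN (2.30, above background on 2 of 4 INHBA-low arrays, and 0.81 with normexp background correction) and NRG1 (2.02) were higher and EREG (-1.56) was lower. Of 16 YAP and TEAD target genes, 4 were higher and 1 lower (median 0.37), with FOXF2 at 2.13, IGFBP3 at 1.39 and NUAK2 at 1.37, and ARHGEF17 at -1.21. Of 22 SRF and actin cytoskeleton genes, TAGLN2 (1.54) and CNN1 (1.58, above background on 4 of 8 arrays) were higher and TPM2 (-1.05) was lower. These shares of 9.09% and 4.55% lie near the 6.29% and 3.95% of all tested genes. Of 16 heat shock genes, 3 were higher, with HSPA1A, an inducible chaperone, at 2.28 ± 0.35, CRYAB, a small heat shock protein, at least 2.88-fold higher and DNAJB4 at 1.28 ± 0.72. The DNAJB4 difference was 0.59 without KHSRP siRNA array 2 and 0.995 without KHSRP siRNA array 4, each under 2-fold. HSPA1B, a near-identical copy of HSPA1A whose transcripts these probes may share, differed by -0.26. RORA, of the circadian clock list, was at least 4.78-fold higher and VLDLR at least 3.65-fold higher, both being at background on the INHBA-low arrays.

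Other lists had medians below 0. Of 25 cholesterol synthesis and uptake genes, 1 was higher and 2 lower, 6 of 25 lay above 0 and the median was -0.53. TM7SF2 was among the lower genes and SQLE (1.22), squalene epoxidase, was higher. The 15 circadian clock genes had a median of -0.52, with TEF (-1.32) and DBP (-1.05) lower, and the 12 fatty acid synthesis genes a median of -0.33, with SCD (-1.09) lower. The 19 snoRNA host and small RNA genes had a median of -0.39 with 1 above 0, the 24 p53 targets of -0.35 with 4 above 0, the 11 metallothionein and zinc genes of -0.38 and the 10 glucocorticoid-response genes of -0.37, each of these last lists with 3 above 0. MT1F (-1.42), a metallothionein, TP53INP1 (-1.23), a p53 target, KLF2 (-1.23), an immediate-early transcription factor, SCARNA2 (-1.14), a small Cajal body RNA, and GDF15 (-1.03), a stress cytokine, were the lower members that led their lists.

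The lists of growth and basic cell functions did not separate the sets. None of 44 mitosis, 42 DNA replication, 55 cytosolic ribosomal protein and 49 respiratory chain genes parted them, with medians of -0.01, -0.11, -0.11 and -0.09. None of 16 MAPK feedback genes did so either, in a list too short to tell this from the shares of all tested genes. Single members stood out of other lists, such as CBS (2.22), an enzyme of cysteine synthesis, PSMB8 (1.96), a subunit of the immunoproteasome, EDEM1 (1.32), which acts in the degradation of misfolded glycoproteins, SLC2A1 (1.19), the glucose transporter GLUT1, and SGK1 (1.13), a kinase induced by glucocorticoids. The histone gene H2AC8 differed by 1.71 ± 0.89, and by 0.88 without control array 2. Of the lists that mark other cells, 0 of 3 tested fibroblast genes and 0 of 2 tested endothelial genes parted the sets, and between 2 and 3 of 12 fibroblast markers and 1 and 2 of 10 endothelial markers were well above background on any array. Of 9 tested leukocyte genes, 2 were higher, among them CD68 (1.63), a lysosomal protein found in many cells, whereas the pan-leukocyte marker PTPRC differed by -0.36. The summed leukocyte signal ran from 6.35 to 8.04 on the INHBA-high and from 4.24 to 5.66 on the INHBA-low arrays, with 6 to 9 of 13 markers above background on the former and 7 on each of the latter, and its part in the differences was not tested. By chromosome, the median difference was highest on chromosome 20 (0.21) and lowest on chromosome 22 (-0.28).

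The siRNA contrast is balanced over the sets and was not used to choose them, so it could be tested. With the set as a term, 2693 of 20537 probes (13.1%) passed an adjusted p of 0.05 for KHSRP siRNA, 1198 higher and 1495 lower. Without the set term the number was 882, and all 882 were among the 2693. The term removes a spread that was chosen from the same arrays, which lowers the residual error by construction. Leaving out any 1 of the 8 arrays gave between 1539 and 1779 probes. With a replicate block numbered as in the series matrix, which joins the arrays that correlated above, the count was 5310. With arrays scaled to their median it was 1148, of which 24.7% were higher after KHSRP siRNA against 44.5% in the 75th percentile scale.

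Whether parting probes passed the siRNA test more or less often than others depended on the fit. Of 1846 parting probes, 171 (9.26%) passed with the set as a term, against 13.5% of the other 18691 probes, and with the replicate block of the series matrix numbers 31.4% passed against 25.3%. INHBA was 1.03 higher after KHSRP siRNA, and without the set term it did not pass (limma adjusted p = 0.758). Since INHBA chose the sets, the set term removes its spread by construction. The replicate block was not chosen by INHBA, but each of its pairs lies within a set, so it takes out the set difference as well. The SE of INHBA was 0.37 with the set as a term (limma adjusted p = 0.111) and 0.11 with the replicate block (limma adjusted p = 0.00546). The first p-value is therefore no evidence of a change. The second holds only if the series matrix numbers pair the samples, which the labels do not say. Within the 4 pairs of that block the INHBA difference was 1.21, 1.22, 1.02 and 0.68. Of the 22 basal squamous markers, 2 rose with the set as a term, KRT6B by 0.91 ± 0.20 (adjusted p = 0.0249) and PERP by 0.46 ± 0.10 (adjusted p = 0.0247) by limma, beside 6.47% of all tested genes, and with the block 7 rose and 1 fell, beside 14.3% and 14.9% of all tested genes. None of 44 mitosis genes parted the sets and 38 fell after KHSRP siRNA with the set as a term, beside 8.24% of all tested genes, with a median of -0.74.

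Some genes differed on both axes in the fit with the set as a term. TIMP3, an inhibitor of matrix metalloproteinases that the study followed, was 1.52 ± 0.21 higher in the INHBA-high set and rose by 1.21 ± 0.19 after KHSRP siRNA (limma adjusted p = 0.00706). ID2 differed between the sets by -1.505 ± 0.20 and fell by 1.57 ± 0.18 after KHSRP siRNA (limma adjusted p = 0.00233). IFI44L rose by 0.88 ± 0.12 (adjusted p = 0.00434) and OAS2 by 1.42 ± 0.27 (adjusted p = 0.0147) in the same limma fit. TEF fell by 1.47 ± 0.18, DBP by 0.77 ± 0.09 and GPR162 fell by 1.102 ± 0.21, with limma adjusted p of 0.00323, 0.00322 and 0.0165. The set term lowers the residual error of such genes by construction. Without it the limma adjusted p was 0.315 for TIMP3, 0.514 for IFI44L and 0.289 for OAS2. For TEF, DBP and GPR162 it was 0.158, 0.354 and 0.433, so none of TIMP3, IFI44L, OAS2, TEF, DBP and GPR162 passed. The paper also reports higher TIMP3 mRNA by qPCR and higher TIMP3 protein after KHSRP knockdown. The EMT regulators that the study followed were chosen by the study on these samples and so are no independent evidence. Of the 10 tested, 8 rose after KHSRP siRNA with the set as a term, beside 6.47% of all tested genes. With the replicate block of the series matrix numbers 10 rose, beside 14.3% of all tested genes. Of these regulators 1, TIMP3, parted the sets.

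**Figure D5:**
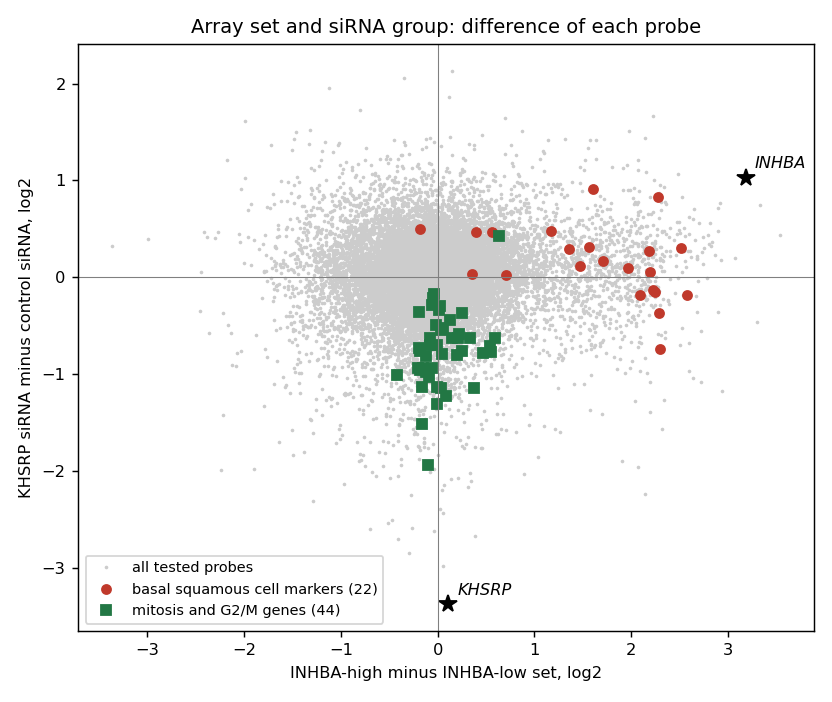
Each tested probe by its difference between the sets (horizontal, log2) and its change after KHSRP siRNA (vertical, log2), with 22 basal squamous cell markers as red circles and 44 mitosis genes as green squares. The red circles spread to the right along 0 on the vertical axis, the green squares lie near 0 on the horizontal axis and, but for 1, below 0 on the vertical one, INHBA stands at 3.18 and 1.03 and KHSRP at 0.11 and -3.37.

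Whether KHSRP siRNA changed mRNAs unequally in the sets was tested as the interaction of siRNA group and set. No probe of 20537 passed an adjusted p of 0.05 by limma (0%), and 442 had an unadjusted p under 0.05. Without control array 1 or KHSRP siRNA array 3 the number that passed was 3, without control array 3 it was 1, and it was 0 without any of the other arrays. The median SE of the difference between the effects was 0.29 on the log2 scale, with 2 arrays for each of the 4 combinations of siRNA group and set. On simulated arrays with the residual spread of these probes, the fit recovered 3 of 100 planted differences of 1 on the log2 scale. Of 100 planted differences of 2 it recovered 53. Most unequal effects of 2-fold would thus be missed, and the lack of passing probes does not show that the effects were equal. The smallest unadjusted p values belonged to RSPH1, INO80D and TAGLN. TAGLN, the actin-binding protein transgelin, read -0.93 and -0.44 against -2.30 and -2.59 on the control arrays and -2.62 and -2.55 against -2.57 and -2.57 on the KHSRP siRNA arrays. The siRNA difference was thus -1.90 in the INHBA-high set and -0.12 in the INHBA-low set, and the difference between these, -1.78 ± 0.28, did not pass (limma adjusted p over all probes = 0.9998). The second TAGLN probe gave -1.56. For RSPH1 and INO80D, the difference was 1.32 and -2.66, and their second probes gave 0.40 and -0.10.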

How the data were processed

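Messenger RNA was measured on 8 single-colour Agilent arrays of KYSE850 cells, 4 with control siRNA and 4 with KHSRP siRNA. The deposited scanner files hold processed signal intensity per spot (Feature Extraction 11.5.1.1 per the file headers, 12.6 per the labels), already corrected for background. The authors also deposited a series matrix of log2 values, scaled to the same percentile, whose differences between arrays match those of the scanner files while each probe carries an offset of unstated basis. Its columns for KHSRP siRNA replicates 3 and 4 hold the scanner values of array 4 and array 3 (r = 1.00 against -0.43 for the same number, over 17229 probes), so by its numbers the INHBA-high set is replicates 1 and 3 of both groups. Which of the 2 sources is right was not settled, and scanner numbers are used. Its column medians ran from -0.25 to 0.22.

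Spots of a probe were averaged and log2 signals were shifted to the 75th percentile of the array. Control spots and outlier flags were left out. Of 42405 probes, 64.2% carried a gene symbol through the RefSeq tables. The 20537 probes well above background on at least 4 arrays were tested (16637 with a symbol, 12871 genes, each by its brightest probe). The set difference is the lmFit coefficient with siRNA group as covariate, with its SE and no test. siRNA and interaction terms were tested with limma 3.58.1 in R 4.3.3 (eBayes, two-sided, Benjamini-Hochberg over all tested probes, threshold 0.05), and KHSRP also by an exact permutation test. The code was tested on simulated data.

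Named were the 12 genes with the largest difference in each direction among parting probes above background on all 8 arrays, the members of the activin, receptor and SMAD lists, up to 4 leading parting genes of every other list, the 2 largest bounds per direction and the 3 smallest interaction p-values. The sets, members and lists were chosen with earlier results of these data known. Same-numbered arrays of the series matrix numbering deviated together (r = 0.51, 0.42, 0.83 and 0.83), and scanner numbers 3 and 4 did not (r = -0.67 and -0.62). Arrays of each such series matrix pair also share their set and slide. Control array 2 correlated with KHSRP siRNA array 3, of its set but the other slide, at 0.41. The labels do not say whether these numbers pair the samples, and this was not tested. Promoter stretches are from RefSeq. Some genes that the rule names are not reported here. Alternatives were other scalings, normexp background correction (offset 50, on the spot median), the series matrix, other filters and thresholds, slide and replicate blocks, and leaving out each array. The number of arrays limits the precision.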

Additional observations from a re-analysis of the deposited data

Results flagged for a closer look

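Dixon's test at the 95% level was run on 252 groups of 4 arrays, each a named gene or scanner measure within one siRNA group. In 4 of them an array stood apart from the other 3. Most of the genes were named because 2 arrays of each siRNA group lay above the other 2. Such a split leaves little room for a single array apart, so the count cannot be set against the 1 in 20 of chance. INHBB stood at -1.36 on control array 4, against -1.82 to -1.76 on the other control arrays. INHBC stood at -2.19 on KHSRP siRNA array 4, against -3.42 to -3.34 on the other 3. The slope of the spiked-in control RNAs was 0.890 on KHSRP siRNA array 3, against 0.934 to 0.943. The coefficient of variation of replicate probes was 14.5% on KHSRP siRNA array 2, against 13.7% to 13.8%.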

How the results depend on the processing

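None of the named genes' set differences past 2-fold reversed its direction under the alternatives run for them. The rule of no overlap fixed this in advance for leaving out an array, blocking by slide, single slides and other filters. Only other scalings, normexp and the series matrix could have changed it. The siRNA changes of single genes other than KHSRP were rerun only with the series matrix block. Medians of lists near 0, such as those of the SMAD and mitosis genes, changed sign under some alternatives. The probes higher and lower in the INHBA-high set numbered 334 and 101 with normexp, whose offset compresses dim probes by construction, 660 and 429 among probes above background on all 8 arrays, and 1991 and 2064 at 1.5-fold. Within slides, an alternative chosen after seeing the data, they numbered 835 and 239 on slide 1 and 1557 and 1461 on slide 2. The share on the higher side was 61.2% in the values reported, 76.8% with normexp, 49.1% at 1.5-fold and 77.7% on slide 1. Leaving out 1 array gave 1054 to 1228 higher and 518 to 932 lower probes.

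For the siRNA term, 1148 probes passed with median scaling, 744 without a filter and 882 without the set term, and leaving out 1 array gave 1539 to 1779. With a replicate block numbered as in the series matrix, 5310 passed, and as in the scanner files 4277, where 1271 probes were lower in the INHBA-high set. With the scanner block 1454 probes were higher in the INHBA-high set, and with slide as a block 3767 passed for the siRNA. KHSRP passed and the interaction gave 0 probes with each block. The interaction gave 0 probes except when 1 array was left out, which gave 0 to 3. KHSRP ran from -3.46 to -3.27. Of values for named genes under all alternatives, 245 moved by more than 1 SD and 2034 did not, and of list medians 21 moved and 839 did not. Among genes of the 2-fold rule, ARHGEF17 (-0.92 without KHSRP siRNA array 4), TPM2 (-0.87 without KHSRP siRNA array 4), GDF15 (-0.98 without control array 4), SCD (-0.94) and SGK1 (0.94, both without control array 3) lay under it at their lowest when 1 array was left out. Over all alternatives, further named genes lay under 2-fold at their lowest. Examples were CNN1 (0.35), HEY1 (0.50), IGFBP3 (0.52), S100A8 (0.57), IFI44L (0.64), OAS2 (0.68), TIMP3 (0.74), TEF (-0.34) and DBP (-0.45). Genes given by a bound also lay under it at their lowest, namely IL36G (0.88), RORA (0.52), IL6 (0.39), KLK11 (0.36), FZD8 (0.36), TMPRSS11D (0.31), CRYAB (0.31) and VLDLR (0.30). The causes were not tested, and dim probes near background limit the values.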
